A study of Mus musculus with 20 samples.

Results

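The genes described here encode the proteins of the cytosolic ribosome, the particle that translates messenger RNA in the cell's cytoplasm. Members were taken by name from the gene count table. A member is a protein-coding gene whose symbol is Rpl or Rps followed by digits and at most a letter, with Rplp0, Rplp1, Rplp2 and Rpsa added, the variants Rpl3l, Rpl10l, Rpl39l, Rps4x and Rps27l kept, and pseudogenes, ribosomal protein S6 kinases and mitochondrial ribosomal proteins left out. This gave 80 of the 37620 genes in the table, 48 of the large subunit and 32 of the small subunit.

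Whole bone marrow RNA of 20 mice was sequenced after depletion of ribosomal RNA, with 5 mice in each of 4 groups. All mice were lethally irradiated congenic hosts that had received marrow of transgenic donors and had engrafted for over 6 weeks, and every donor carried the doxycycline-dependent transactivator rtTA with an inducible transgene, either the human splicing factor U2AF1(WT) or its leukaemia-associated mutant U2AF1(S34F). Doxycycline was fed at 625 ppm for 7 days, and the last 5 of these days brought an infusion through a jugular catheter of either sudemycin D6, a compound that binds the SF3B1 subunit of the spliceosome, or its carrier hydroxypropyl-beta-cyclodextrin (vehicle). The groups are called vehicle U2AF1(WT), drug U2AF1(WT), vehicle U2AF1(S34F) and drug U2AF1(S34F). Donor marrow was pooled within a genotype, the hosts' own cells that survive irradiation were not separated, and the endogenous U2af1 gene was present in all groups, so that mice of a genotype are separate recipients but not separate donors.

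A ribosome joins a large subunit, which holds the centre that forms peptide bonds, to a small subunit, which decodes the message, and nearly every ribosomal protein is needed in a single copy in each particle. Many ribosomal protein messages begin with a run of pyrimidines, the terminal oligopyrimidine or TOP motif, through which the TOR pathway sets how actively they are translated. In bone marrow these genes are known for their link to failure of red cell production. Loss of function of a single allele of genes such as RPS19 causes Diamond-Blackfan anaemia in humans, and loss of an allele of RPS14 belongs to the myelodysplastic syndrome with deletion of the long arm of chromosome 5.

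Count sums per mouse ran from 41145892 to 62138138, and no pair of mice of a group had counts that agreed within sampling noise. Levels are given as CPM, counts scaled to a common library size after normalization by trimmed means. The 20 libraries separated completely by sex-linked transcripts along the line of genotype. Xist lay between 879 and 1593 CPM in the U2AF1(WT) mice and at or under 0.15 CPM in the U2AF1(S34F) mice, and Ddx3y, a gene of the Y chromosome, had no count in any U2AF1(WT) mouse and 39 to 76 CPM in the U2AF1(S34F) mice. Genotype and sex, as read from these transcripts, cannot be told apart in any comparison of genotypes below. In whole marrow, fewer cells of a type and less RNA per cell cannot be told apart either.

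The members were abundant, with a median over genes of 302 CPM. Of the 80, 77 lay between 10 and 1000 CPM on average. The most abundant by CPM were Rpsa, also known as the laminin receptor, at 895 CPM, then Rpl4 at 822 CPM and Rps9 at 723 CPM. Per kilobase of annotated exon, which allows levels of different genes to be compared, Rps12 led with 1070 CPM per kb, ahead of Rplp1 with 747 and Rps27 with 738, and the median was 209. The 3 members under 10 CPM are copies best known from other tissues. Rpl3l, the striated-muscle relative of Rpl3, averaged 1.47 CPM. Rpl39l, a testis-enriched copy of Rpl39, had 139 counts in all, spread over 16 mice. Rpl10l, a testis copy of Rpl10, had a count of 0 in every mouse. Rpl39l and Rpl10l fell to the low-count filter in every comparison, which left 78 members tested.

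The summed share of the 80 members in all gene counts averaged lower in U2AF1(WT) than in U2AF1(S34F) marrow, and within a genotype the means under vehicle and drug differed by less than the SD between mice. In vehicle U2AF1(WT) mice the share was 2.25, 3.0, 1.98, 1.87 and 2.25%, a mean of 2.27% ± 0.44 (SD, n = 5). In drug U2AF1(WT) mice it was 2.59, 2.07, 2.14, 2.42 and 2.03%, a mean of 2.25% ± 0.24 (SD, n = 5). The highest U2AF1(WT) values belonged to replicate 2 of the vehicle mice and replicate 6 of the drug mice. In vehicle U2AF1(S34F) mice it was 2.92, 3.13, 2.78, 2.69 and 2.91%, a mean of 2.88% ± 0.17 (SD, n = 5). In drug U2AF1(S34F) mice it was 2.70, 2.73, 2.57, 3.17 and 2.71%, a mean of 2.78% ± 0.23 (SD, n = 5). Under vehicle the genotypes overlapped only through replicate 2 of U2AF1(WT), whose 3.0% lay inside the U2AF1(S34F) range, and under drug they overlapped by the U2AF1(WT) mouse at 2.59% and the U2AF1(S34F) mouse at 2.57%. No test was made of a sum over members.

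**Figure D1:**
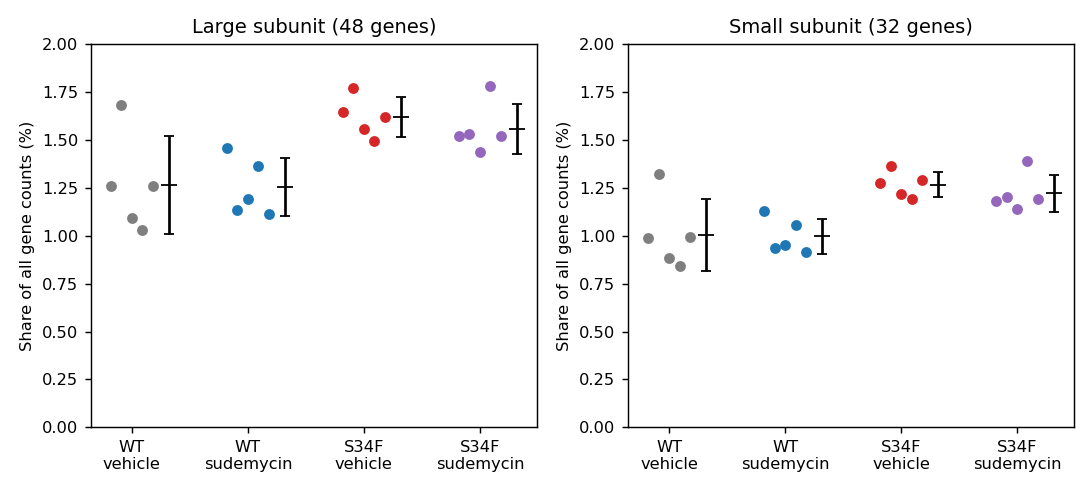
Share of all gene counts taken by the 80 ribosomal protein genes, in percent, for each of the 20 mice, with large-subunit and small-subunit genes shown apart; points are mice and the bars give group means with SD. Summed over both panels, the U2AF1(S34F) groups average 2.88 and 2.78% against 2.27 and 2.25% in the U2AF1(WT) groups, with 1 vehicle U2AF1(WT) mouse at 3.0%.

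Both subunits moved together. Large-subunit genes took 1.26, 1.25, 1.62 and 1.56% of counts in vehicle U2AF1(WT), drug U2AF1(WT), vehicle U2AF1(S34F) and drug U2AF1(S34F) mice, and small-subunit genes took 1.01, 0.997, 1.27 and 1.22% in the same order. The ratio of large-subunit to small-subunit counts stayed between 1.21 and 1.3 in all 20 mice. Spread between mice was not even across groups. For the 77 members over 10 CPM, the median coefficient of variation was 19.3% in vehicle U2AF1(WT), 11.4% in drug U2AF1(WT), 5.02% in vehicle U2AF1(S34F) and 6.60% in drug U2AF1(S34F) mice.

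**Figure D2:**
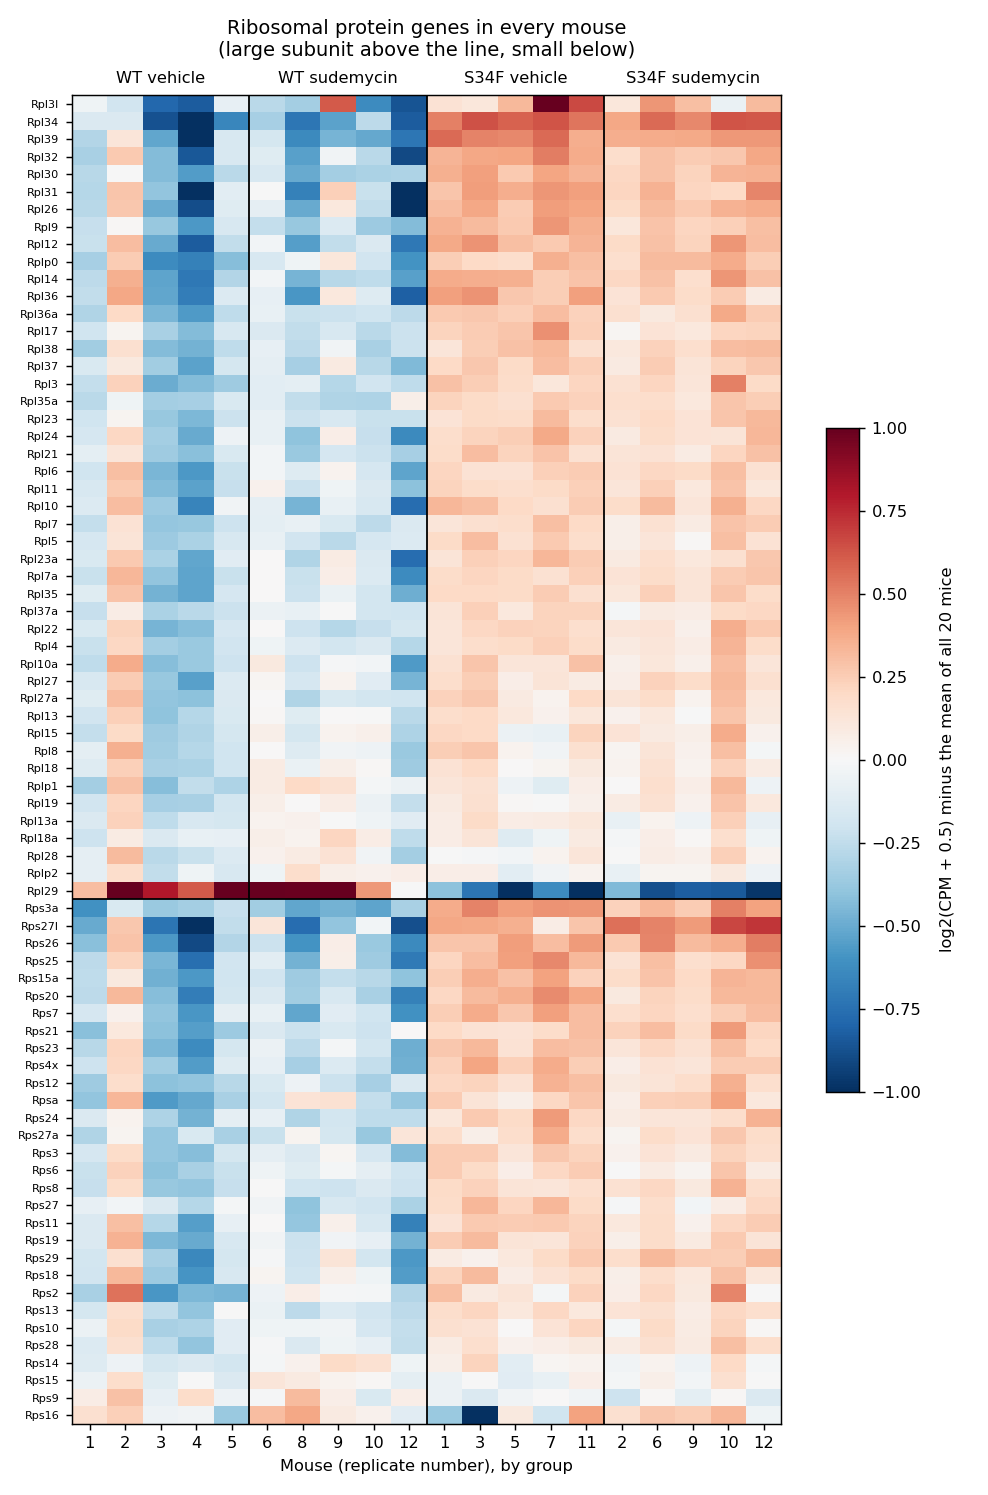
Level of 76 tested members in each mouse, as log2(CPM + 0.5) minus the mean of all 20 mice, with mice in columns by group and genes in rows by subunit; colours are capped at -1 and 1. Most rows are lower in the 10 U2AF1(WT) columns, where replicate 2 of the vehicle mice stands out as high, and Rpl29 runs the other way.

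The first comparison set marrow with the mutant transgene against marrow with the wild-type transgene, both without drug. Of the 78 members tested, 65 differed between vehicle U2AF1(S34F) and vehicle U2AF1(WT) mice at a false discovery rate (FDR) under 10% in edgeR's quasi-likelihood test with Benjamini-Hochberg adjustment over 14817 genes. Of these, 64 were higher in U2AF1(S34F) marrow and 1, Rpl29, was lower. Over all genes tested, 39.5% passed this threshold and 19.7% passed it as higher. The median log2 fold change was 0.38 over members, with quartiles of 0.29 and 0.52, and 0.002 over all genes. For 24 of the 78 members every U2AF1(S34F) mouse lay above every U2AF1(WT) mouse, against 9.91% of all genes. Of the 46 large-subunit members tested 37 were higher, with a median of 0.38, and of the 32 small-subunit members 27 were higher, with a median of 0.37.

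Rps3a, a protein of the small subunit's platform side, and Rpl34, a protein of the large subunit, were among the clearest. Rps3a stood at 239, 326, 281, 287 and 309 CPM in vehicle U2AF1(WT) mice and at 470.1, 512, 485, 496 and 492 CPM in vehicle U2AF1(S34F) mice. The groups were far apart and did not overlap, and the log2 fold change was 0.76 ± 0.087 (SE) with an FDR of 8.0e-05 in edgeR. Rpl34 stood at 121, 122, 73.4, 62.7 and 85.2 CPM against 191, 209, 202, 208 and 195 CPM. Every U2AF1(S34F) mouse exceeded every U2AF1(WT) mouse, with a log2 fold change of 1.10 ± 0.16 (SE) and an FDR of 0.00062 in edgeR. Rpl3l had a slightly larger fold change, 1.12 ± 0.31 (SE, FDR 0.015 in edgeR), from 0.953 ± 0.37 to 2.14 ± 0.81 CPM (SD, n = 5), at levels where few reads decide.

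Rpl39, which lies on the X chromosome and encodes a very small protein near the exit tunnel, stood at 156, 208, 133, 89.9 and 171 CPM in vehicle U2AF1(WT) mice. In vehicle U2AF1(S34F) mice it stood at 283, 270.1, 267, 283 and 247 CPM, again without overlap, for a log2 fold change of 0.82 ± 0.17 (SE, FDR 0.0039 in edgeR). The other members on X were higher too, with log2 fold changes of 0.47 for Rps4x, 0.50 for Rpl36a and 0.38 for Rpl10, each under an FDR of 10% in edgeR. Rpl10 lost its call without U2AF1(WT) replicate 1 (FDR 0.10) or 3 (FDR 0.13) or U2AF1(S34F) replicate 1 (FDR 0.11), and was at 0.20 (FDR 0.23 in edgeR) with GC content and length corrected for. These 4 genes sit on the chromosome whose Xist transcript separates the genotypes, and the part of that difference in their levels was not tested.

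Rpl29 went the opposite way to all other members called. It is a small, basic protein of the large subunit. It stood at 45.4, 86.3, 64.2, 56.2 and 80 CPM in vehicle U2AF1(WT) mice and at 27.4, 21.8, 15.5, 23.5 and 16.8 CPM in vehicle U2AF1(S34F) mice. No mouse of either group reached the other's range, and the log2 fold change was -1.67 ± 0.20 (SE) with an FDR of 0.00021 in edgeR.

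Genes of Diamond-Blackfan anaemia and of the 5q deletion are described as a list of 9, namely Rps7, Rps10, Rps14, Rps19, Rps24, Rps26, Rpl5, Rpl11 and Rpl35a. All 9 were higher in vehicle U2AF1(S34F) marrow, with a median log2 fold change of 0.38, as over all members. Rps26 rose most, from 123, 200.1, 109.9, 87.5 and 133 CPM to 199, 199, 219, 203 and 220.2 CPM, a log2 fold change of 0.66 ± 0.17 (SE, FDR 0.014 in edgeR). Its groups overlapped only through replicate 2 of the U2AF1(WT) mice. Rps19, the gene most often mutated in the anaemia, stood at 251, 353, 203, 195 and 247 CPM against 330.3, 344, 302, 301 and 324 CPM. Here replicate 2 of the U2AF1(WT) mice exceeded every U2AF1(S34F) mouse, and the log2 fold change of 0.35 ± 0.14 (SE) had an FDR of 0.069 in edgeR. Rpl5 and Rpl11, which together with 5S RNA bind the p53 regulator Mdm2, rose by 0.37 and 0.38 on the log2 scale, with an FDR of 0.011 and 0.032 in edgeR. Rps14 changed least of the list, by 0.17 ± 0.073 (SE, FDR 0.090 in edgeR). Calls of 3 of these genes were marginal. With 1 of the 10 mice left out in turn, Rps14 lost its call 8 times (without U2AF1(WT) replicate 1, 3, 4 or 5 or any U2AF1(S34F) replicate but 5), and Rps10 and Rps19 lost theirs 7 times each. For Rps10 these were the same mice except U2AF1(S34F) replicate 3, and for Rps19 the same except replicate 7, with FDR values up to 0.21 and 0.16 in edgeR. With GC content and length corrected for, Rpl5 was at 0.13 (FDR 0.29 in edgeR) and Rps24 at 0.16 (FDR 0.17 in edgeR).

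The ribosomal stalk is the flexible arm of the large subunit that calls in translation factors. Rplp0, the base of the stalk, rose from 526 ± 151 to 783 ± 40 CPM (SD, n = 5), a log2 fold change of 0.56 with an FDR of 0.014 in edgeR. Its partners Rplp1 and Rplp2, the acidic proteins at the tip, had log2 fold changes of 0.21 and 0.06 and FDR values of 0.23 and 0.62 in edgeR. Whether the 3 differ from each other was not tested. Without replicate 2 of the vehicle U2AF1(WT) mice Rplp1 was at 0.36 (FDR 0.0028 in edgeR), and with GC content and length corrected for it was at 0.41 (FDR 0.052 in edgeR). Rpsa rose by 0.43 with an FDR of 0.045 in edgeR, a call lost without U2AF1(WT) replicate 1 (FDR 0.10) or 3 (FDR 0.11). Its U2AF1(WT) values were 668, 1103, 591, 616 and 702 CPM, and the 1103 CPM of replicate 2 was above every U2AF1(S34F) mouse, which lay at 1049, 958, 916, 1014 and 1063 CPM.

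The 13 members that did not pass included Rps9, at 766 ± 84 against 692 ± 27 CPM (SD, n = 5, log2 fold change -0.16, FDR 0.21 in edgeR), and Rps16. Rps16 was the least even of the members over 10 CPM in vehicle U2AF1(S34F) mice, at 146, 63.8, 202, 164 and 249.8 CPM, and its log2 fold change of -0.20 ± 0.30 (SE) had an FDR of 0.65 in edgeR. Members with close relatives were higher in each pair tested. Rps27 rose from 234 ± 17 to 301 ± 15 CPM (SD, n = 5, FDR 0.0040 in edgeR), and its paralogue Rps27l, a p53-responsive gene, rose from 22.1 ± 8.5 to 36.2 ± 3.2 CPM (SD, n = 5, FDR 0.033 in edgeR). Rpl3, the abundant relative of Rpl3l, rose from 427 ± 95 to 582 ± 27 CPM (SD, n = 5, FDR 0.019 in edgeR).

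**Figure D3:**
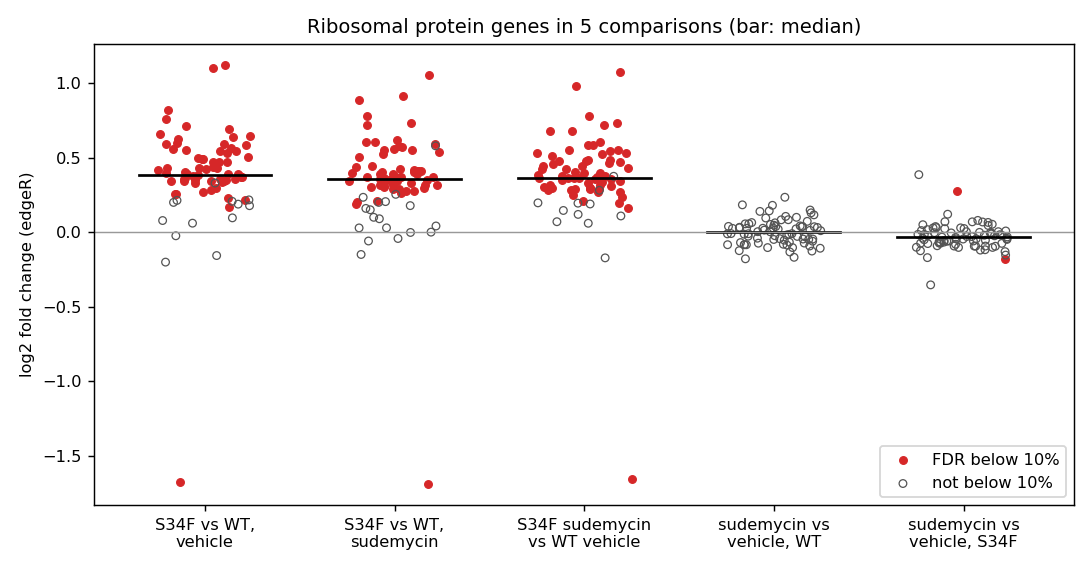
Log2 fold change of each tested member in the 5 comparisons, with points for genes, filled where the FDR is under 10%, and bars for the medians. Medians lie at 0.38, 0.35 and 0.37 in the 3 comparisons that cross genotype and at 0.003 and -0.03 in the comparisons of drug with vehicle.

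The same genotype comparison under drug gave 60 of 78 members called, 59 higher in U2AF1(S34F) mice and again Rpl29 lower, with a median log2 fold change of 0.35. Over all genes, 36.8% were called and 17.2% were called as higher. For 52 of the 78 members every U2AF1(S34F) mouse lay above every U2AF1(WT) mouse, against 10.4% of all genes. Rps3a stood at 284, 253, 262, 252 and 289.6 CPM in drug U2AF1(WT) mice and at 425, 456, 432, 513 and 479 CPM in drug U2AF1(S34F) mice. Its log2 fold change was 0.78 ± 0.081 (SE, FDR 9.1e-05 in edgeR). Rpl34 stood at 107, 81.3, 92.3, 112 and 75.2 CPM against 175, 199, 188, 208 and 207 CPM, a log2 fold change of 1.06 ± 0.11 (SE, FDR 0.00012 in edgeR). Neither gene's groups overlapped. Rpl29 stood at 74.1, 73.0, 107, 49.6 and 36.5 CPM against 26.7, 19.7, 20.4, 20.2 and 18.4 CPM. Its lowest U2AF1(WT) mouse was above the highest U2AF1(S34F) mouse, with a log2 fold change of -1.69 ± 0.24 (SE, FDR 0.00058 in edgeR).

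Of the 9 anaemia genes 8 were higher under drug, with a median log2 fold change of 0.32. The exception was Rps14, at 273, 284, 315, 308 and 269 CPM in drug U2AF1(WT) mice and 270.0, 283, 268, 317 and 273 CPM in drug U2AF1(S34F) mice. The ranges coincided, and the log2 fold change was -0.04 ± 0.077 (SE, FDR 0.72 in edgeR). Rps27l was the second largest increase, 0.92 ± 0.18 (SE, FDR 0.0035 in edgeR), after Rpl34. Leaving out the 2 drug U2AF1(WT) libraries with uneven junction coverage, described below, left 46 members called, 45 of them higher. The share of all genes called was not counted for that fit.

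Drug against vehicle within U2AF1(WT) marrow called 0 of 78 members in edgeR, and DESeq2 called 0 as well, where edgeR called 3.07% of all genes. At an unadjusted p under 0.05 there was 1 member, Rps14. The members' median log2 fold change was 0.003, and the whole list lay between -0.18 for Rpl39 and 0.23 for Rplp1. Rps14 stood at 253, 267, 245, 251 and 243 CPM under vehicle and at the drug values given above. Every drug mouse exceeded every vehicle mouse, and the log2 fold change of 0.18 ± 0.082 (SE) had an FDR of 0.35 in edgeR. Standard errors of single members were mostly above 0.1, so a change of the size seen for Rps14 could not be called at this spread. Without replicate 2 of the vehicle mice, the library with the highest ribosomal protein share, 3 members were called and the median became 0.12. How many of all genes were called without it was not counted.

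Drug against vehicle within U2AF1(S34F) marrow called 2 of 78 members, against 10.8% of all genes, and the median over members was -0.03. Rps27l rose from 38.5, 38.3, 37.6, 30.9 and 35.6 CPM to 43.1, 41.4, 39.5, 46.8 and 48.3 CPM, so that all drug mice lay above all vehicle mice. Its log2 fold change was 0.27 ± 0.076 (SE) with an FDR of 0.055 in edgeR. Rpl36 fell from 109.7, 112, 99.5, 97.8 and 109.5 CPM to 90.7, 98.97, 93.4, 98.1 and 87.3 CPM, with some overlap, a log2 fold change of -0.18 ± 0.058 (SE) and an FDR of 0.095 in edgeR. Neither passed at an FDR of 5%. With 1 of the 10 mice left out in turn, Rps27l lost its call 4 times (without vehicle replicate 11 or drug replicate 2, 10 or 12, FDR up to 0.12) and Rpl36 lost its call 7 times (without vehicle replicate 1, 3 or 11 or drug replicate 2, 9, 10 or 12, FDR up to 0.19), and with a correction for GC content and transcript length Rpl36 had a log2 fold change of 0.02 (FDR 0.92 in edgeR).

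A test of whether the drug acted differently in the genotypes, the interaction term over all 20 mice, called 0 of 78 members in edgeR and 0 in DESeq2, where edgeR called 0.0130% of all genes. The smallest unadjusted p belonged to Rps14, 0.040, with a difference of -0.22 ± 0.10 (SE) on the log2 scale, and it was the only member under 0.05. For Rps27l, called within U2AF1(S34F) only, no difference between genotypes was therefore shown. Mutation plus drug against vehicle U2AF1(WT), which shares its mice with the comparisons above and is no further replicate of them, called 67 of 78 members, 66 higher and Rpl29 lower, with a median of 0.37. Over all genes 50.2% were called and 25.1% were called as higher. Rps27l rose there from 22.1 ± 8.5 to 43.8 ± 3.7 CPM (SD, n = 5), a log2 fold change of 0.98 with an FDR of 0.0042 in edgeR.

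Ribosomal protein genes have many processed copies in the genome that lack introns, and reads from a message can be assigned to such a copy. In the mouse genome used by the files, 71 of the 80 members had at least 1 near-identical copy, at 95% identity over at least 80% of the longest annotated coding sequence. Of those without a copy by this rule, Rpl24, Rpl13a and Rps19 had longest coding sequences of 3153, 1272 and 639 bp. Copies of a shorter form of such a gene could be missed. There were 532 copies in all, with a median of 5.5 a gene, 55 for Rpl21 and 26 for Rpl29. Reads that cross an annotated exon junction of the parent gene are less exposed to such copies, though not free of them. The comparisons were therefore repeated on the sum of these reads per gene. Of 77 members tested, 59 were higher and 1 lower in vehicle U2AF1(S34F) mice, with a median of 0.39, where 33.1% of all genes were called and 16.2% were called as higher. By both readings, 58 were higher. Under drug 59 were higher and 0 lower, with a median of 0.36, against 31.6% of all genes called and 15.1% called as higher, and 58 were higher by both. Mutation plus drug gave 62 higher and 1 lower, with 43.7% of all genes called and 21.7% called as higher. Drug in U2AF1(WT) gave 0 by edgeR, with 0 at an unadjusted p under 0.05, against 1.13% of all genes. Drug in U2AF1(S34F) gave the same pair, Rps27l higher and Rpl36 lower, against 7.27%.

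The readings differed for Rpl29 and Rpl34. By junction reads Rpl29 fell by 0.53 on the log2 scale under vehicle (SE 0.16, FDR 0.027 in edgeR), against the fall of 1.67 by gene counts. Under drug the junction reads gave -0.47 (SE 0.22, FDR 0.14 in edgeR), which did not pass. Rpl34, with 5 copies, rose by 0.81 by junction reads in place of 1.10. For 69 of the 77 members the readings were within 0.1 of each other, and only Rpl29 and Rpl34 differed by more than 0.15. Members without a copy by the rule above had a median of 0.37 by gene counts and 0.39 by junction reads under vehicle, and members with 10 or more copies had 0.39 and 0.43. Rps19 and Rps27l had no copy by that rule, and their junction readings of 0.35 and 0.69 were those of the gene counts.

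**Figure D4:**
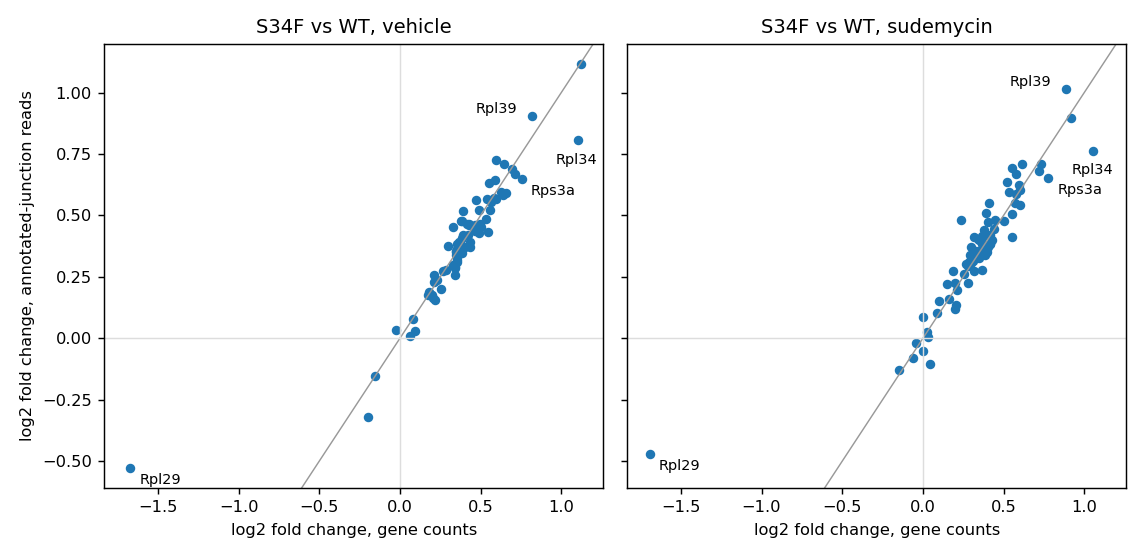
Log2 fold change of each member by annotated-junction reads (vertical) against gene counts (horizontal) for the genotype comparisons under vehicle and under drug, with the line of equal values. Under vehicle 69 of 77 members lie within 0.1 of the line, and Rpl29 lies 1.15 above it.

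Coverage along these short genes was uneven in a few libraries. The SD between introns of a member, on the log2 scale, was 0.36 in vehicle U2AF1(WT) replicate 4, 0.30 in drug U2AF1(WT) replicate 8 and 0.44 in drug U2AF1(WT) replicate 12, and between 0.11 and 0.23 in all U2AF1(S34F) mice. Genes low in GC also tended to be higher in U2AF1(S34F) marrow. Genes that are not members had a median log2 fold change under vehicle of 0.21 at or under 45% GC and -0.18 above 55%, and of 0.13 at or under 1000 bp of transcript and -0.07 over 4000 bp. Within each of these classes the members had a higher median. It was 0.39 over 5 members and 0.23 over 21 members in the outer GC classes. In the outer length classes it was 0.38 over 51 members and 0.47 over only 2 members. With GC content and length corrected for, 60 members were called under vehicle and 52 under drug. The share of all genes called was not counted under this correction, so these counts have no background beside them. The part of coverage in the remaining difference was not tested.

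Cell type markers moved with genotype as well. The summed level of 10 neutrophil markers was 63999 to 72773 CPM in vehicle U2AF1(WT) and 86553 to 141034 CPM in vehicle U2AF1(S34F) mice, with 5 of the 10 higher and 0 lower, and all 10 passed the low-count filter. The summed B cell markers were low and lower in U2AF1(S34F) mice by their medians, at 125 CPM (43.0 to 142) against 50.9 CPM (16.4 to 168) under vehicle and 137 CPM (25.2 to 173) against 43.1 CPM (34.6 to 52.6) under drug. Of 9 B cell markers 0 were called under vehicle and 4 were lower under drug in edgeR. Under drug the neutrophil sums overlapped, 59732 to 104263 CPM with U2AF1(WT) and 73997 to 122175 CPM with U2AF1(S34F), and the summed monocyte and macrophage markers did not, 1304 to 1541 CPM against 1573 to 1973 CPM. The single monocyte and macrophage markers had no common direction there. Of 7 tested 2 were higher and 1 lower in edgeR, with a median log2 fold change of -0.01. Drug in U2AF1(S34F) mice also went with higher monocyte and macrophage sums, from 1246 to 1515 CPM under vehicle, and with lower stem and progenitor sums, 91.8 to 124 CPM against 132 to 173 CPM. Stem and progenitor sums were lower with drug in U2AF1(WT) mice too by their medians, at 91.8 CPM (65.1 to 131) against 133 CPM (104 to 153). Of 6 such markers 2 were lower with drug in U2AF1(WT) and 4 in U2AF1(S34F) in edgeR. The part of marrow composition in the members' levels was not tested.

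Messages that share features or functions with the members were read from the same fits. Of 76 mitochondrial ribosomal protein genes tested, whose products build the separate ribosome of mitochondria, 36 were higher and 1 lower in vehicle U2AF1(S34F) mice, with a median log2 fold change of 0.22, where 19.7% of all genes were called higher and 19.8% lower. Of 20 other TOP messages 7 were higher and 1 lower, with a median of 0.19. They included Eif3e, a subunit of translation initiation factor 3, at 0.65 (FDR 0.0011 in edgeR). Pabpc1, the poly(A)-binding protein, fell by 0.41 (FDR 0.0053 in edgeR). Of 30 ribosome biogenesis genes 10 were higher and 2 lower against the same background, with a median of 0.07. Those higher included Npm1 at 0.51 and Nop58 at 0.51, and those lower were Polr1a, the largest subunit of RNA polymerase I, at -0.37, and the polymerase I factor Ubtf at -0.22. All 3 tested ribosomal protein copies that the naming rule leaves out, Rpl22l1, Rpl36al and Rpl7l1, were higher, at 0.65, 0.36 and 0.43.

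Of 13 genes of the TOR pathway and TOP control 8 were lower and 1 higher, where 19.8% of all genes were called lower. Larp1, which binds TOP messages, was at -0.26 (FDR 0.036 in edgeR), Rptor at -0.51 (FDR 0.00045 in edgeR) and Myc at -0.55 (FDR 0.024 in edgeR), and Rps6kb1, the kinase of ribosomal protein S6, at 0.30 (FDR 0.0071 in edgeR). Of 11 p53 targets tested 4 were higher and 4 lower, so they had no common direction. Cdkn1a, the cell cycle inhibitor p21, was at -1.01 and Ccng1 at 0.51. Under drug the mitochondrial list gave 37 higher and 2 lower, the other TOP messages 13 and 1, the biogenesis list 4 and 2, and the regulators 1 and 6, where 17.2% of all genes were called higher and 19.6% lower. The biogenesis count was thus no higher than the background.

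Letters around the annotated starts were read for the runs that TOP messages carry. The window was 20 bases before to 10 bases from each Ensembl transcript start, and the run searched was a C followed by at least 4 bases that are C or T, on the transcribed strand only. Such a run lay in the window of at least 1 start for 59 of 80 members (73.75%) and for 11563 of 22329 protein-coding genes (51.8%). A run that begins exactly at an annotated start was found for 16 members (20%) and for 902 genes (4.04%). The windows below, mouse build mm9, belong to Rpl34 and Rps3a, described above as among the clearest, to Rpl29, and to the pair called for drug in U2AF1(S34F). Rpl3l and Rpl39, whose fold changes under vehicle were larger than that of Rps3a, are not shown. Where a gene has more than 1 annotated start, 1 window is shown. Capitals mark the runs.
Rpl34 (chr3:130433246-130433275, minus strand): ccgCCCCTTCCTTTTCCTCTTCCggggacg
Rps3a (chr3:85946615-85946644, minus strand): acggcgggaaacgagccgccagctagtgtc
Rpl29 (chr9:106331850-106331879, plus strand): actgcgggCCTTTCTCTTTCTCTTCCggtc
Rps27l (chr9:66793873-66793902, plus strand): CCTCTCCaCTCCTCCCCgccgCCTCTatcc
Rpl36 (chr17:56752798-56752827, plus strand): ctgcaagtggcatatatcccaggattctgc
The Rpl29 window shown is at the start of the first exon with the less used GC donor, described below. The window at the start of its usual first exon held a run as well. Rpl29, which was lower, thus carried a run, as did Rpl34, which was higher, and Rps3a, also higher, carried none in its window. No run lay in the windows of Rpl39 or Rpl3l, which were higher too. Annotated starts can lie off the true start by some bases, so a window without a run says nothing of the message's first base.

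U2AF1 reads the last bases of an intron, so the choice of splice sites within members was compared too. A choice is the share of reads of an annotated junction among those that share its start or its end, tested with limma on the log odds over all genes. Under vehicle 13 of 76 member choices were called between genotypes, in 6 members, where 5.77% of all choices were called. Within drug U2AF1(WT) against vehicle 0 of 69 were called by limma, with 9 at an unadjusted p under 0.05, against 1.69% of all. Drug in U2AF1(S34F) gave 5 of 75, against 2.60%, the genotype comparison under drug gave 12 of 74, against 5.96%, and mutation plus drug gave 15 of 74, against 8.96%. With the variance trend first used, described in the methods, the calls were 3, 0, 2, 4 and 7 in the same order. Many calls rested on junctions listed at 0 in some mice although the mice that list them averaged 20 reads or more, which was the case for 37 of the 76 member choices and 2349 of 35264 choices in all. With such choices left out, 5 of 39 member choices were called under vehicle (5.38% of all choices), 0 of 38 for drug in U2AF1(WT) (1.68%) and 2 of 38 for drug in U2AF1(S34F) (2.58%). Between genotypes under drug 2 of 39 were called (5.63%), and for mutation plus drug 4 of 39 (8.75%). These calls lay in Rpl29 and Rps9. Where only 2 junctions share a site, both enter as mirror images with the same p. The 2 calls between genotypes under drug were such a pair, in Rpl29. Other members with a called choice, among them Rpl7a, Rpl11, Rpl19, Rpl26, Rpl27a, Rpl35a, Rps14 and Rps18, are named only, because a junction in each is listed at 0.

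Rpl29 has overlapping annotated first exons, chr9:106331785-106331907 and chr9:106331870-106331970, both noncoding, whose donors join the same acceptor of an exon with coding sequence. The donor of the first has the common GT, and that of the other, 3′ of it, has the rarer GC. The exons belong to transcripts with separate starts, so start and donor cannot be told apart here. These sites are shown because the genotypes differed in the choice between them. In mm9, 10 exon bases stand before each donor and 20 intron bases before the acceptor, and capitals mark the first bases of the intron or its last bases.
Rpl29 usual donor (chr9:106331898-106331927, plus strand): gcgggttaccGTgagtgttggccttacggc
Rpl29 other donor (chr9:106331961-106331990, plus strand): gggtcgcgagGCaggcgacacgggtggcag
Rpl29 acceptor (chr9:106332281-106332310, plus strand): atctcgtggctttcttgCAGgtgcagacat
The GC donor took 10.3, 11.7, 12.2, 14.2 and 13.2% of reads into that acceptor in vehicle U2AF1(WT) mice, and 5.14, 5.08, 0.411, 2.24 and 0.306% in vehicle U2AF1(S34F) mice. All U2AF1(S34F) mice were lower. The means were 12.3% ± 1.5 and 2.64% ± 2.4 (SD, n = 5), the log2 odds differed by -3.05 ± 0.57 (SE, FDR 1.6e-05 in limma), and an exact permutation test, two-sided, gave p = 0.0079, the smallest that 252 splits allow. With the variance trend first used its FDR was 0.11 in limma. Under drug it took 8.4, 8.13, 13.3, 8.14 and 9.31% with U2AF1(WT) against 6.2, 0.742, 2.39, 1.40 and 1.33% with U2AF1(S34F). Again no mouse overlapped, with the same exact permutation p of 0.0079. The permutation test, here and for Rps9, was run only on choices that limma had called from the same reads. Its p is not adjusted for that selection. At least 204 reads stood behind each mouse's share.

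Rps9 has a rarely used annotated exon of 174 bp before its last exon, at chr7:3657610-3657783. Its sites and those of the exons around it are shown because the shares of its junctions differed with genotype under vehicle and, in U2AF1(S34F) mice, with drug. In mm9, capitals mark the first bases of an intron at a donor and the last bases of an intron at an acceptor.
Rps9 donor before the exon (chr7:3657512-3657541, plus strand): gtcacattagGTgagttgcagctgggcctg
Rps9 acceptor of the exon (chr7:3657590-3657619, plus strand): ccattctatctcctgtgCAGcctttggagc
Rps9 donor of the exon (chr7:3657774-3657803, plus strand): agctggacagGTaacagctcttggtgccac
Rps9 acceptor after the exon (chr7:3658233-3658262, plus strand): attctgttcttcctgtcCAGggtccgcaag
The junction out of the exon took 3.42, 3.92, 3.86, 2.91 and 3.62% of reads into the last acceptor in vehicle U2AF1(WT) mice and 1.89, 2.28, 2.42, 2.21 and 2.69% in vehicle U2AF1(S34F) mice. The groups did not overlap, at means of 3.54% ± 0.41 and 2.30% ± 0.29 (SD, n = 5), with an FDR of 0.00030 in limma and an exact permutation p of 0.0079, two-sided. The fall was not particular to this exon. A junction into the same acceptor from an earlier donor, at chr7:3656370, averaged 1.33 and 0.786% (FDR 0.0091 in limma). The usual junction averaged 95.1 and 96.9% (FDR 3.8e-06 in limma). For both junctions the groups did not overlap. The junction into the exon took 2.36, 2.17, 2.09, 2.72 and 2.64% of reads from the donor before it in vehicle U2AF1(S34F) mice and 3.35, 3.03, 3.34, 3.27 and 3.31% in drug U2AF1(S34F) mice. Between genotypes under drug no Rps9 choice was called, and the shares out of the exon overlapped, 2.48 to 3.68% with U2AF1(WT) and 2.45 to 3.35% with U2AF1(S34F). For the junction into the exon in U2AF1(S34F) mice every drug mouse was higher, by 0.866 percentage points on average (FDR 0.010 in limma, exact permutation p = 0.0079, two-sided). In U2AF1(WT) mice the same junction took 2.48 to 3.12% under vehicle and 2.38 to 3.26% under drug, ranges that overlapped. Neither the genotype difference at the junction out of the exon nor the drug difference at the junction into it was called at the exon's other junction. Between genotypes under vehicle the junction into the exon overlapped, with 2.09 to 2.72% in U2AF1(S34F) mice. For drug in U2AF1(S34F) the junction out of it overlapped, 1.89 to 2.69% under vehicle against 2.45 to 3.35% under drug. A change in use of the whole exon was not tested. Rps9 had at least 7947 reads behind each share, and its gene counts were not called in any of the 5 comparisons. With GC content and length corrected for, they were called lower between genotypes under vehicle (-0.25, FDR 0.054 in edgeR) and for mutation plus drug (-0.26, FDR 0.019 in edgeR), the latter also without vehicle U2AF1(WT) replicate 3 (FDR 0.085) or 5 (FDR 0.091).

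**Figure D5:**
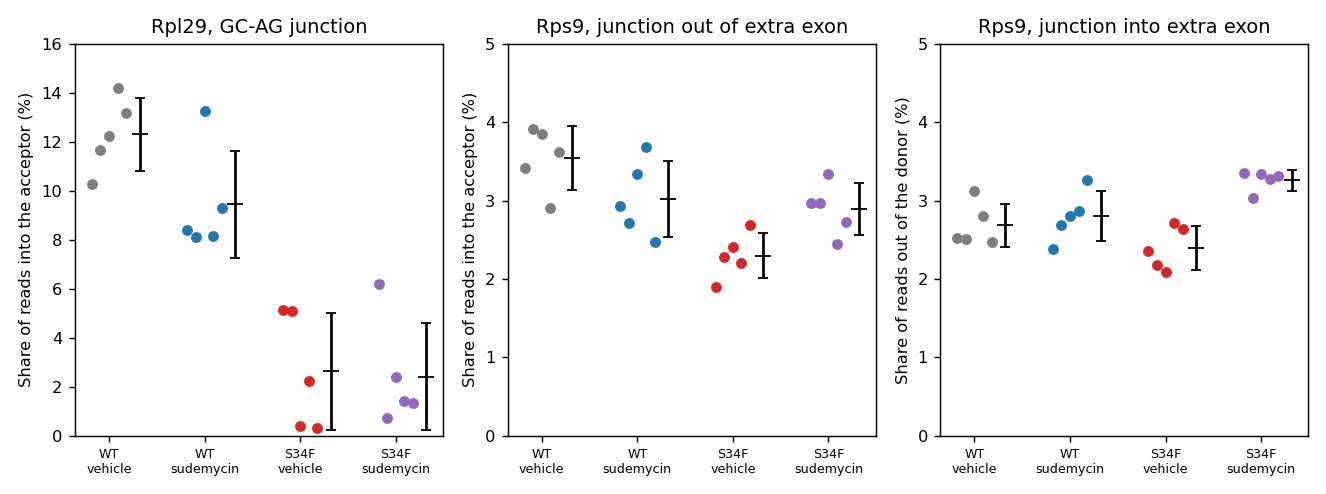
Share of reads, in percent, of the GC donor of Rpl29 and of the junctions of the rarely used Rps9 exon in each of the 20 mice by group, with group means and SD. The acceptor of that Rps9 exon is shared with longer annotated exons. The GC donor of Rpl29 averages 12.3 and 9.45% in the U2AF1(WT) groups and 2.64 and 2.41% in the U2AF1(S34F) groups.

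The base before the AG of the acceptor, at which U2AF1(S34F) is known to differ from U2AF1(WT), had the usual make-up in these genes. Of 360 annotated acceptors of members, 65% had C there, 29.7% T and 5.0% A. Over 102433 acceptors of all genes the shares were 62.2, 31.8 and 5.76%. The Rpl29 acceptor and both Rps9 acceptors shown above have C at this place.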

How the data were processed

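The authors sequenced strand-specific, ribosome-depleted total RNA as read pairs of 2 × 126 bases, and the submitters' processing notes name TopHat 2.0.8 and build mm9. They deposited raw counts per gene and raw counts per splice junction for 20 mice; the counter and its strand setting are not given in the sources used here. Count sums were 41145892 to 62138138 for genes and 34384214 to 64813149 for junctions. From these counts, edgeR 4.0.16 (R 4.3.3) was run with TMM scaling, filterByExpr, a prior count of 2 and robust quasi-likelihood tests on the 10 mice of each of 5 comparisons, with Benjamini-Hochberg adjustment over all genes and a threshold of 10%. DESeq2 1.42.0 was the alternative. Splicing choices used limma 3.58.1 on log2 odds with a pseudocount of 0.5, a mean of at least 20 reads and a mean share of 1 to 99%. The covariate of its variance trend was changed, after the first results and simulated data were seen, from the mean total to the expected counting variance, which raised the member calls.

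The members and lists were chosen with earlier results of these data known. Genes named are the anaemia and 5q genes, the 3 most and least abundant members, those with close relatives, Rpsa and the stalk, those on X, up to 4 called members with the largest change in each direction of a comparison, or the 2 with the smallest p where none was called, and those with a called choice; Rps12, Rps16, Rpl21 and the list genes were named after their values were seen. A few genes of these lists are not reported here. Copies were found with minimap2 2.31 and starts were read from the mm9 genome with Ensembl transcripts. Replicate numbers shared between groups were checked for pairing: correlations of same-numbered mice ran from -0.111 to 0.211, and not all passed 0.1, so no pairing was used. Mice of a genotype share pooled donors, so p-values measure the spread between recipients.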

Additional observations from a re-analysis of the deposited data

Results flagged for a closer look

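In 180 groups of 5 mice (members named above, shares and splicing shares), 16 values stood apart from the other 4 by Dixon's criterion of 0.71, and chance gives about 1 in 20. Replicate 2 of vehicle U2AF1(WT) was high for Rpl19 (432 CPM), Rpl4 (937 CPM), Rplp1 (449 CPM) and Rpsa (1103 CPM). Replicate 9 of drug U2AF1(WT) was high for Rpl3l (2.33 CPM), and replicate 7 of vehicle U2AF1(S34F) was high for Rpl39l (1.01 CPM).

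In drug U2AF1(S34F) mice, replicate 10 was high for the share of all members (3.17%), of large-subunit members (1.78%) and of small-subunit members (1.39%) and for Rpl3 (711 CPM), and replicate 2 was high for Rpl29 (26.7 CPM). For splicing, the usual Rps9 junction into the last acceptor took 95.7% in replicate 4 of vehicle U2AF1(WT), above the other mice. In replicate 9 of drug U2AF1(WT) the usual Rpl29 donor took 86.7% and the GC donor 13.3%. In replicate 6 of drug U2AF1(S34F) the junction into the Rps9 exon took 3.03% and the one past it 97.0%, the nearest to the vehicle mice in that group.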

How the results depend on the processing

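With each mouse left out in turn, members called ran from 47 to 73 for genotype under vehicle, 53 to 65 under drug, 53 to 75 for mutation plus drug, 0 to 3 for drug in U2AF1(WT), 0 to 2 for drug in U2AF1(S34F) and 0 to 0 for the interaction. Members higher ran from 46 to 72, 52 to 64 and 51 to 74 in the first 3. The lowest vehicle count came without vehicle U2AF1(WT) replicate 3 and the highest without replicate 2. Splicing choices called ran from 7 to 13 for genotype under vehicle, 10 to 14 under drug, 8 to 15 for mutation plus drug, 0 to 4 for drug in U2AF1(WT) and 4 to 8 for drug in U2AF1(S34F).

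DESeq2, its size factors, scaling from other genes, no filter, a model of all mice and an FDR of 5% gave 53 to 68, 53 to 60 and 54 to 69 calls in the 3 comparisons that cross genotype. Drug in U2AF1(S34F) gave 1 call without a filter, 0 in a model of all mice and 0 at an FDR of 5%. The correction for GC content and length, added after the data were seen, gave 60, 0, 3, 52 and 64 calls, and there Rpl36 under drug in U2AF1(S34F) turned to 0.019 and the median of members from -0.03 to 0.03. The share of all genes called was not counted under these settings, with a mouse left out or with the replicate block below.

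For the lists, biogenesis genes higher were 6 under vehicle at an FDR of 5%, and in a model of all mice 9 under drug and 8 for mutation plus drug. Other TOP messages higher were 11 under vehicle with a replicate block, and under drug 7 at an FDR of 5%, 7 with the GC and length correction and 7 with the block, and the mitochondrial list was 24 with the replicate block. With the replicate number as a block, members called were 69 under vehicle and 53 under drug, but the numbers do not pair the mice. Under vehicle that block put Rplp1 at 0.41 (FDR 0.020) and Rpl3l at 0.66 (FDR 0.14).

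Splicing choices were least stable. Leaving out junctions listed at 0, also added later, kept 38 or 39 member choices in each comparison. It gave 5, 0, 2, 2 and 4 calls in the order genotype under vehicle, drug in U2AF1(WT), drug in U2AF1(S34F), genotype under drug and mutation plus drug. The first trend covariate gave 3, 0, 2, 4 and 7, with Rps9 called under vehicle and Rpl29 not (FDR 0.11 in limma). A pseudocount of 1 gave 2 for drug in U2AF1(WT), 2 for drug in U2AF1(S34F) and 4 for mutation plus drug. The cause was not tested in any of these. Standard errors mostly above 0.1 in U2AF1(WT) mice limit what the drug comparison could show.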
